A study of Mus musculus with 12 samples.

Results

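The Frizzled receptors and their LRP co-receptors are the cell-surface entry point of the Wnt pathway, and 10 of them, *Fzd1* to *Fzd8*, *Lrp5* and *Lrp6*, were followed here among the 39017 genes of the count table. They were listed by name, with no measured value in the rule, and *Fzd9* and *Fzd10* are not among them. All 10 passed the filter on low counts (14953 genes tested). RNA from whole adrenals was sequenced for 6 control (Ctrl) mice of genotype ASCre/+ and 6 βCat-GOF mice of genotype bigenic ASCre/+ ::Ctnnb1fl(ex3)/+. All mice were female, 10 to 11 weeks old and on a mixed sv129-C57Bl/6 background. The sample titles mark the controls as Wt, and the paper also calls them wild type. By the genotype labels, mice of both groups carried Cre at the aldosterone synthase locus (AS, *Cyp11b2*), whose activity is that of the zona glomerulosa (zG). In these cells of βCat-GOF mice, recombination deletes the floxed *Ctnnb1* exon from 1 allele and β-catenin is stabilized. The libraries held between 13484675 and 25625494 counts. Because the whole gland was used, fewer cells of a type and less RNA per cell cannot be told apart.

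Frizzled proteins span the membrane several times and bind Wnt ligands through an extracellular cysteine-rich domain, while LRP5 and LRP6 cross the membrane once and are phosphorylated on their cytoplasmic tail after a ligand joins them to a Frizzled. The resulting complex recruits Dishevelled and Axin and keeps β-catenin from being degraded. The stabilized β-catenin of the βCat-GOF allele lacks the residues that mark it for degradation and so acts downstream of these receptors. In the adrenal, Wnt/β-catenin signaling is known for its role in the zG. The comparison of the 2 genotypes bears on which transcripts differ when β-catenin is stabilized in the zG.

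What the receptors share in sequence is shown first, since the families differ widely outside these sites. Each of the 8 Frizzled coding sequences in GENCODE M21 (GRCm38, the same assembly as mm10) held 1 motif of lysine and threonine, any 3 residues and tryptophan, the stretch after the last membrane span through which Dishevelled is bound. The codons of the motif are printed 5′ to 3′ on the coding strand for the 7 genes whose sequence is shown, all within a single coding exon, with capitals marking the codons of the lysine, the threonine and the tryptophan. *Fzd8* is not printed.
Fzd1 (chr5:4755706-4755723, minus strand): AAGACActgaattccTGG
Fzd2 (chr11:102606373-102606390, plus strand): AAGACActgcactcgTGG
Fzd7 (chr1:59484607-59484624, plus strand): AAGACCctgcagtcaTGG
Fzd4 (chr7:89408241-89408258, plus strand): AAAACTcttcacacgTGG
Fzd5 (chr1:64735011-64735028, minus strand): AAGACTctggagtctTGG
Fzd3 (chr14:65212107-65212124, minus strand): AAGACAtgctttgaaTGG
Fzd6 (chr15:39033949-39033966, plus strand): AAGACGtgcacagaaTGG

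The proteins were grouped with their closest relatives by identity, with *Fzd4* apart, and the results are ordered by these groups. *Fzd1*, *Fzd2* and *Fzd7* were 79.4% to 81.6% identical, *Fzd5* and *Fzd8* were 71.0% identical, *Fzd3* and *Fzd6* were 53.1% identical, and *Fzd4* was at most 51.1% identical to another Frizzled. *Fzd3* and *Fzd6* were each other's closest relatives, but some pairs across groups were more alike, up to 54.9% for *Fzd2* and *Fzd5*. *Lrp5* and *Lrp6* were 69.6% identical. Each held 3 exact matches to 3 prolines, a serine or threonine, and a further proline, a kind of site that binds Axin once phosphorylated. Sites that depart from this pattern were not counted. The first of these is shown for each, with the codon of the serine in capitals.
Lrp5 (chr19:3586457-3586471, minus strand): ccacccccgTCCccg
Lrp6 (chr6:134453624-134453638, minus strand): ccaccaccaTCGcct

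βCat-GOF mice 1 and 2 stood apart from the other βCat-GOF mice. Average-linkage clustering on the Spearman correlation over the tested genes placed them on the branch of the 6 controls at the first split, and their median correlation with βCat-GOF mice 3 to 6 was 0.973, against 0.983 among those 4 mice and 0.985 between the pair. The labels of these 2 mice share a stem, as do those of Ctrl 1 and 2 and of Ctrl 3 and 4. The labels do not say whether a stem marks 1 animal, while the paper's figure legend gives 6 and 6 female mice. Labels of all controls begin with 1 number and those of the βCat-GOF mice with another, except mouse 5, so a family or batch that followed this number cannot be told apart from genotype. P-values measure the spread between these 12 libraries. Fits and values without mice 1 and 2 were added after the data were seen and stand beside the results they move most.

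None of the 10 receptor genes was called different between βCat-GOF and Ctrl adrenals in edgeR, the main test here. In edgeR's quasi-likelihood test 0 of 10 had an adjusted p under 0.05, while 3.68% of all genes tested were called (2.16% higher and 1.52% lower in βCat-GOF). The study's cut-offs of a fold change above 1.4 and a base mean above 100 were then added to this edgeR fit. Past them were 0 of 10 members and 2.35% of all genes. At an unadjusted p under 0.05 there were 2 members, *Fzd5* and *Fzd8* (20%), against 20.4% of all genes. DESeq2 called 1 member, *Fzd5*, and 7.30% of all genes. The study applied its cut-offs to DESeq2, and *Fzd5* also passed them in the DESeq2 fit here. The paper's methods also list a qRT-PCR assay for *Fzd5*, and a supplementary figure of the paper reports qRT-PCR of selected genes. Those values were not used here. In no member were the 2 groups of 6 mice fully separated, against 2.78% of all genes. The median log2 fold change of the members was 0.15, against 0.0001 over all genes tested, and 7 of 10 lay above 0. The median size of the change was 0.19 in the members and 0.16 in all genes.

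**Figure D1:**
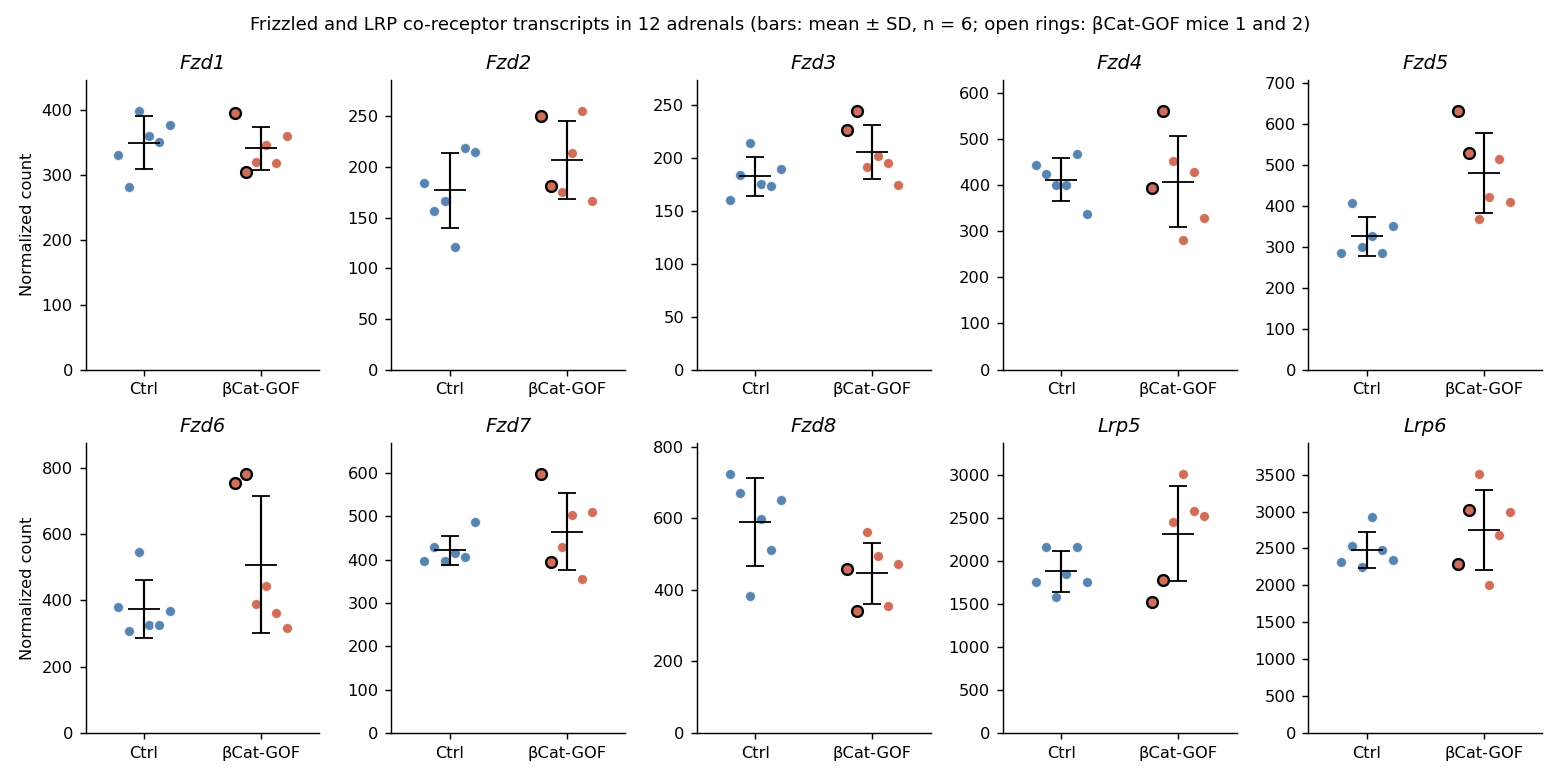
Normalized counts of the 10 receptor genes in each of the 12 mice, with 1 panel per gene and a y axis from 0. Points are mice, bars are mean ± SD of 6 mice, and open rings mark βCat-GOF mice 1 and 2, which hold the 2 highest *Fzd6* values (754 and 780) and the 2 lowest *Lrp5* values of their group (1527 and 1786).

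*Fzd5*, a receptor known for canonical Wnt signaling, came closest to the threshold. Its normalized count (counts divided by DESeq2 size factors) was 284 at the lowest, 313 at the median and 406 at the highest in Ctrl, and 368, 469 and 632 in βCat-GOF. The groups overlapped by a single control, Ctrl 2, and 5 of 6 βCat-GOF mice lay above every control. The means were 325 ± 47.2 and 479 ± 97.9 (SD, n = 6 mice each), a fold of 1.47 and a log2 fold change of 0.56 (SE 0.15, 95% confidence interval 0.24 to 0.87), with an edgeR adjusted p of 0.0538.

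The call of *Fzd5* depended on the setting. It passed with DESeq2 (adjusted p = 0.0065), in edgeR with DESeq2's size factors (adjusted p = 0.0442, 3.79% of all genes called) and in edgeR with 1 surrogate variable (adjusted p = 0.0409, 3.72% called). When each mouse was left out in turn, the log2 fold change stayed between 0.46 and 0.63. The adjusted p was under 0.05 in 2 of these 12 fits, without Ctrl mouse 2 (0.0446) and without βCat-GOF mouse 3 (0.0314). Without βCat-GOF mice 1 and 2 the log2 fold change was 0.39 (edgeR adjusted p = 0.082). Without 1 mouse of each shared stem it was 0.38 (adjusted p = 0.167), the highest adjusted p of the settings tried. Exons of *Gm38058* on the opposite strand cover 17.8% of the exons of *Fzd5*, and since the use of strand in counting is not given in the sources used here, their reads are not known to be separated.

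*Fzd8*, the closest relative of *Fzd5*, had the opposite sign. Its normalized count was 383, 624 and 723 (lowest, median, highest) in Ctrl and 340, 464 and 562 in βCat-GOF. Mice 2 and 5 of βCat-GOF, at 340 and 354, lay below every control, and the other 4 were above only the lowest control, Ctrl 3, or, in mouse 3, above a further one. The log2 fold change was -0.41 (SE 0.16, 95% confidence interval -0.75 to -0.07), with an unadjusted p of 0.0228 that did not pass adjustment in edgeR (adjusted p = 0.172). The 2 relatives thus differed in sign, and their ratio within a mouse, which does not depend on library scaling, was looked at after these values were seen and is given without a test. *Fzd5* per kb over *Fzd8* per kb had a median of 0.476 in Ctrl (0.339 to 0.677) and of 0.973 in βCat-GOF (0.565 to 1.34). In 5 of 6 βCat-GOF mice the ratio was above that of every control, and in 3 of them (mice 1, 2 and 5) *Fzd5* exceeded *Fzd8*.

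The groups of *Fzd1*, *Fzd2* and *Fzd7*, receptors encoded in a single coding exon each, as are *Fzd5* and *Fzd8*, overlapped broadly. *Fzd1* ranged from 282 to 399 normalized counts in Ctrl (median 355) and from 304 to 395 in βCat-GOF (median 333). Every βCat-GOF mouse lay within the control range, and the log2 fold change was -0.04 (95% confidence interval -0.28 to 0.19). *Fzd2* had 121, 175 and 218 in Ctrl and 167, 197 and 255 in βCat-GOF. Its log2 fold change of 0.22 (SE 0.17, edgeR adjusted p = 0.491) came with 2 of 6 βCat-GOF mice above all controls. *Fzd7* had 397, 411 and 486 in Ctrl, a tight group, and 355, 466 and 598 in βCat-GOF, a wider one, with a log2 fold change of 0.13 (SE 0.13, adjusted p = 0.592).

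*Fzd4*, the receptor of norrin as well as of Wnts and known from blood vessel growth, had a median of 413 normalized counts in Ctrl (337 to 469) and of 411 in βCat-GOF (282 to 562). The βCat-GOF mice spread to both sides of the controls. The log2 fold change was -0.02 (SE 0.15, edgeR adjusted p = 0.952).

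*Fzd3* and *Fzd6* are best known from planar cell polarity, the orientation of cells within an epithelial sheet. *Fzd6* had 306, 346 and 544 normalized counts in Ctrl and 317, 416 and 780 in βCat-GOF. The groups overlapped in all mice but βCat-GOF 1 and 2, at 754 and 780, whereas mice 3 to 6 lay between 317 and 443. The log2 fold change was 0.44 (SE 0.24, 95% confidence interval -0.07 to 0.95, edgeR adjusted p = 0.319) with all mice and -0.003 (adjusted p = 0.994) without mice 1 and 2. *Fzd3*, the least abundant per kb, had 160, 180 and 214 in Ctrl and 175, 199 and 245 in βCat-GOF, and its 2 highest values, 226 and 245, were again those of mice 1 and 2. Its log2 fold change was 0.16 (SE 0.12, adjusted p = 0.48) with all mice and 0.05 (adjusted p = 0.829) without mice 1 and 2.

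The co-receptors *Lrp5* and *Lrp6* were the most abundant members. *Lrp5* had 1578, 1808 and 2170 normalized counts in Ctrl and 1527, 2495 and 3014 in βCat-GOF. Here βCat-GOF mice 3 to 6, at 2460 to 3014, lay above every control, and mice 1 and 2, at 1527 and 1786, lay within or below the control range. The log2 fold change was 0.29 (SE 0.15, 95% confidence interval -0.03 to 0.60, edgeR adjusted p = 0.287) with all mice and 0.48 (adjusted p = 0.0153) without mice 1 and 2. In that smaller fit 11.5% of all genes were called, and *Lrp5* was the 1 member among them. The 5 markers of the zona fasciculata (zF) were likewise highest in mice 3 to 6. Their mean log2 CPM was 10.1 to 10.5 in Ctrl, 11.0 to 11.3 in βCat-GOF mice 3 to 6, 10.5 in mouse 2 and 9.69, below every control, in mouse 1, and the part of the zF in the values of *Lrp5* was not tested. *Lrp6* had 2243, 2413 and 2933 in Ctrl and 2007, 2840 and 3508 in βCat-GOF, so that the βCat-GOF mice enclosed the control range. Its log2 fold change was 0.14 (SE 0.12, adjusted p = 0.54).

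The balance of the 2 co-receptors did not differ detectably. The ratio of *Lrp5* to *Lrp6* per kb had a median of 1.06 in Ctrl (0.889 to 1.23) and of 1.09 in βCat-GOF (0.828 to 2.11). The mean log2 ratio was higher by 0.14 in βCat-GOF (exact permutation test, two-sided, p = 0.60, n = 6 against 6, smallest possible p = 0.0022). The highest ratio, 2.11, was that of βCat-GOF mouse 4, and without it the difference was -0.03 (exact p = 0.82). Without mice 1 and 2 the difference was 0.34 (exact p = 0.105).

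**Figure D2:**
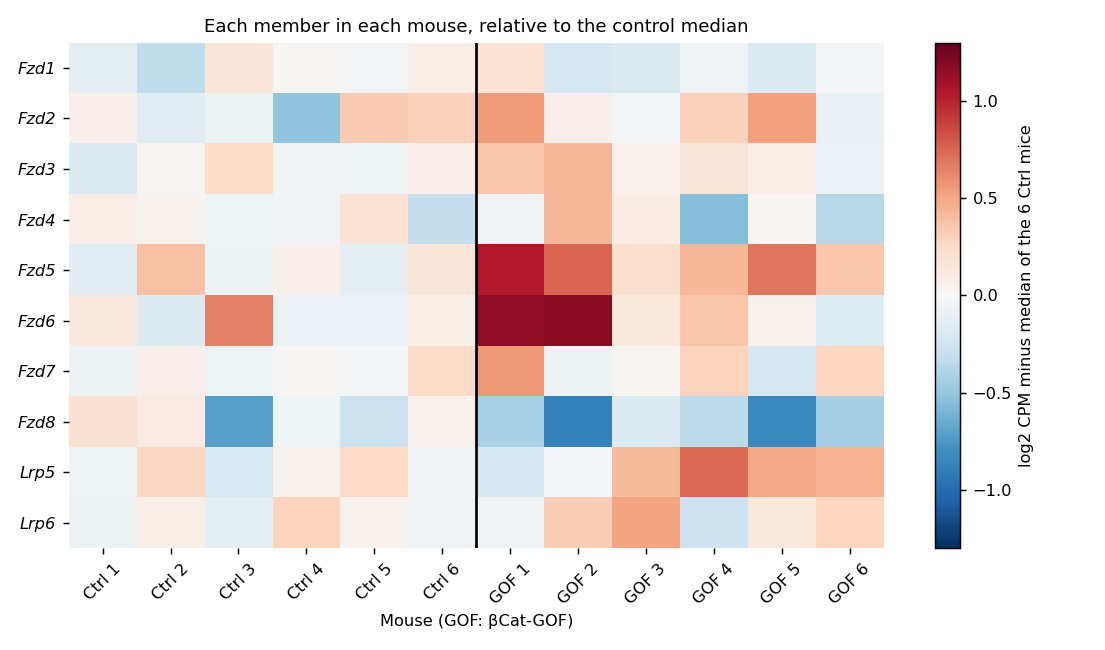
Each receptor gene (rows) in each mouse (columns) as log2 CPM minus the median of the 6 controls, red for higher and blue for lower values. The *Fzd6* cells of βCat-GOF mice 1 and 2 are the darkest red, and the *Lrp5* row is red in βCat-GOF mice 3 to 6 and not in mice 1 and 2.

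Levels of different genes were compared only per kb of exon, on all exons of a gene in the annotation. In Ctrl the order of mean normalized counts per kb was *Lrp5* 193, *Lrp6* 181, *Fzd8* 98.7, *Fzd7* 93.1, *Fzd1* 83.3, *Fzd6* 77.7, *Fzd4* 61.4, *Fzd2* 48.3, *Fzd5* 47.0 and *Fzd3* 14.3. Only at 2 steps, from *Lrp6* to *Fzd8* and from *Fzd5* to *Fzd3*, did the ranges of neighbours over the 6 controls not overlap, so the order of the other neighbours is not resolved. Over all pairs of the 8 Frizzleds, the control ranges were apart in 16 of 28. *Fzd8*, *Fzd7*, *Fzd1* and *Fzd6* each lay above *Fzd2*, *Fzd5* and *Fzd3* in this sense, and *Fzd7* also above *Fzd4*. In βCat-GOF *Fzd6* came next after the co-receptors at 105, a rank that rested on mice 1 and 2, since in mice 3 to 6 its mean was 78.4, below the 99.1 of *Fzd7*. Over all 6 mice *Fzd8* was at 74.7, behind *Fzd7* and *Fzd1*, and only *Fzd2* and *Fzd3* at the end were neighbours without overlap. Over all genes tested with a length, 69.3% had a lower mean level per kb than *Lrp5* and 66.6% than *Lrp6*, whereas the Frizzleds ran from 16.1% (*Fzd3*) to 48.8% (*Fzd7*).

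The summed Frizzled level per kb was 524 ± 20.4 in Ctrl and 566 ± 72.4 in βCat-GOF, and that of *Lrp5* and *Lrp6* was 374 ± 35.4 and 439 ± 65.8 (SD, n = 6 mice each). No Frizzled made up more than 18.8% of the sum on average in Ctrl, where *Fzd8* held the largest mean share. The share of *Fzd8* was 18.8% ± 3.80 in Ctrl and 13.4% ± 3.21 in βCat-GOF, and that of *Fzd5* was 8.99% ± 1.34 and 12.2% ± 1.6. *Fzd6* held 14.8% ± 3.37 and 18.2% ± 5.32, with 22.5% and 26.7% in βCat-GOF mice 1 and 2 and a mean of 14.9% in mice 3 to 6. *Fzd5* held 11.9% and *Fzd8* 15.0% in mice 3 to 6. *Fzd9* and *Fzd10* are not in these sums. Shares sum to a fixed total within a mouse, so that a higher share of 1 receptor lowers the others, and they are given without a test.

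**Figure D3:**
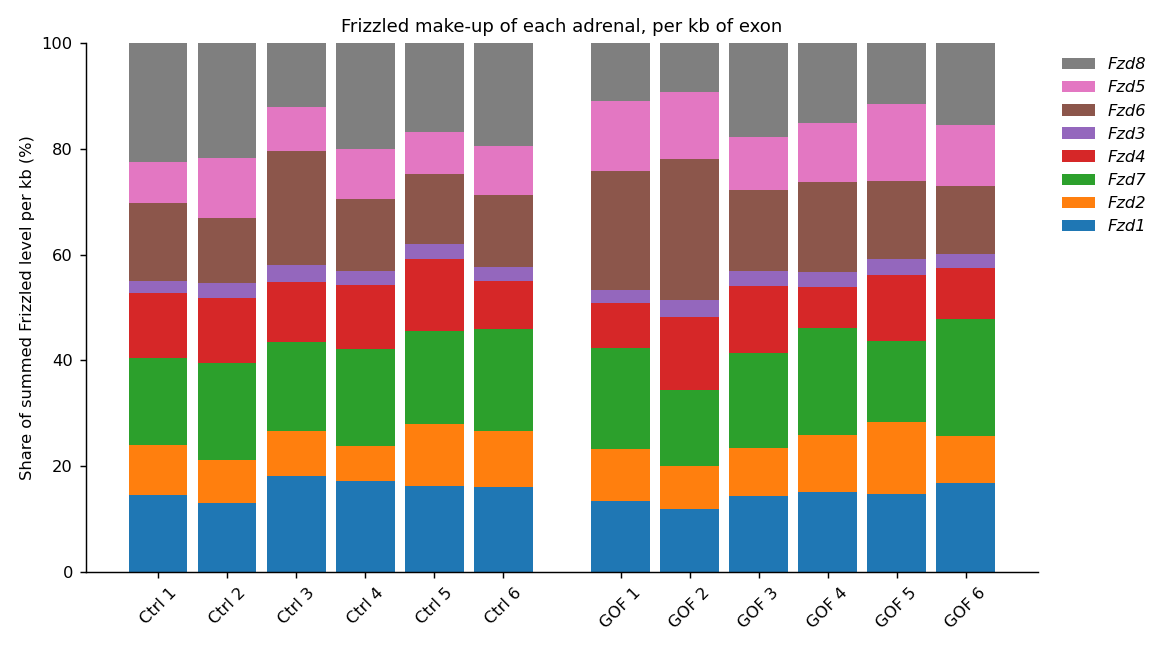
Share of each Frizzled gene in the summed Frizzled level per kb of exon (%), with 1 stacked bar per mouse. The *Fzd5* segment is 7.66% to 11.4% in Ctrl and 10.1% to 14.6% in βCat-GOF, and the *Fzd3* segment is the thinnest in all 12 bars.

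Whether the members followed the level of β-catenin target transcripts among mice of 1 group was examined with a target score. It was the mean log2 CPM of *Axin2*, *Nkd1*, *Notum*, *Lef1*, *Tcf7* and *Apcdd1*. In whole glands, more zG cells and more target RNA per cell cannot be told apart in this score. The score was 3.81 to 4.46 in Ctrl and 4.77 to 6.03 in βCat-GOF (exact permutation p = 0.0022, the smallest possible, adjusted p = 0.0238 over 11 gene lists). The list was assembled with results of these samples known, so the rise is no independent evidence of its direction. Correlations were computed within each group over 6 mice, 20 in all for the 10 members, and 3 had an exact p under 0.05. Over 6 mice such values are imprecise. Within βCat-GOF the mean log2 CPM of the zG markers was also lowest in mouse 3 (6.53) and highest in mice 1 and 2 (7.75 and 7.76). Mice 4 and 6, and mice 1 and 2, were in the opposite order between the score and these markers. The part of the amount of zG in the score was not tested.

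Within βCat-GOF, *Fzd5* ranked the 6 mice as the target score did. Pearson's r was 0.96 (exact permutation test of pairings, two-sided, p = 0.0014, the smallest that 6 mice allow, adjusted p = 0.0278 over the 20). Spearman's rho was 1 (exact p = 0.0028, adjusted p = 0.0556). That exact p is the smallest that ranks of 6 mice allow, so a single member could not pass adjustment over the 20 by rho. Without the 2 mice farthest from the median score, mice 1 and 3, r was 0.868 over 4 mice. With each mouse left out in turn r was 0.92 to 0.98 (exact p from 0.0083 to 0.0417). With any 1 of the 6 βCat-GOF mice left out the adjusted p was 0.167 to 0.50, and the smallest exact p that 5 mice allow is 0.0083. With any 1 of the controls left out it stayed at 0.0278. The 6 mice include the pair that stood apart over all genes, at the top of both scales, and the other 4, which are too few for a test, kept the same order. In Ctrl r was 0.02 and rho 0.20 (exact p = 0.96 and 0.71), and the difference between the groups was not tested.

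No other member passed adjustment. In βCat-GOF *Fzd3* had r = 0.88 (exact p = 0.0319, adjusted p = 0.259) and rho = 0.83. *Fzd6* also had r = 0.88 (exact p = 0.0389, adjusted p = 0.259) with rho = 0.66, and its high values were those of mice 1 and 2. *Lrp5* ran the other way (r = -0.74, rho = -0.49, exact p = 0.0903, adjusted p = 0.451).

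**Figure D4:**
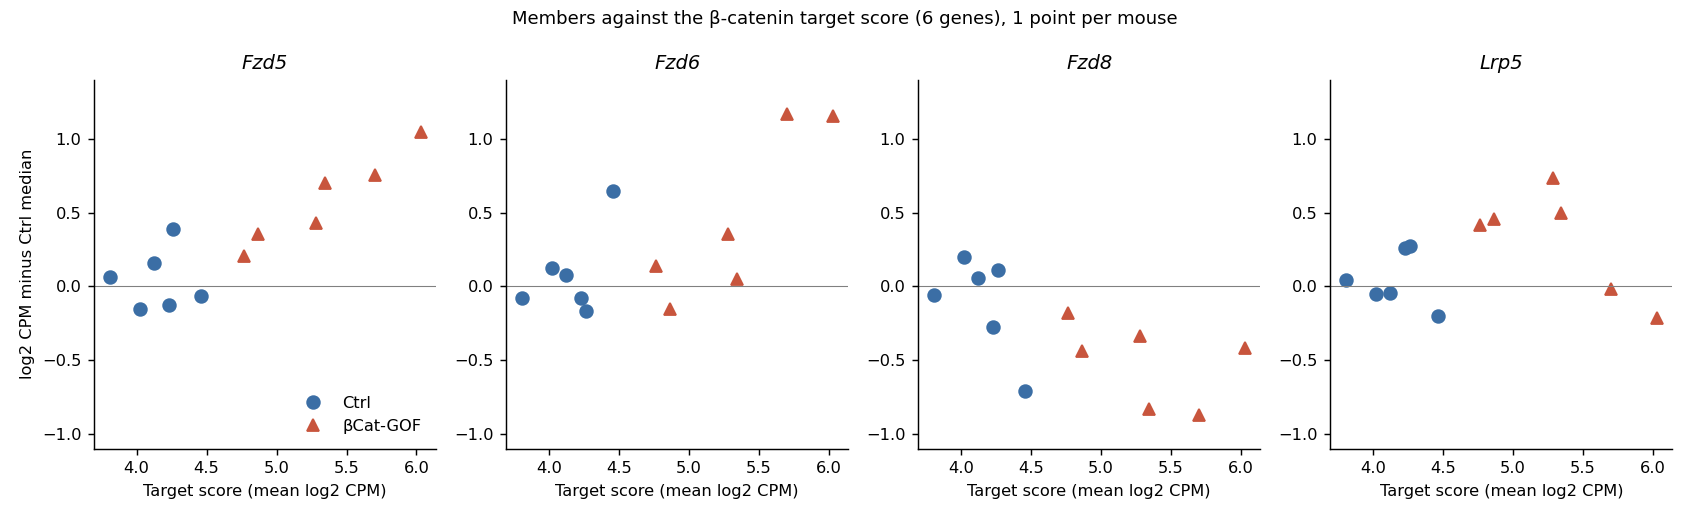
Log2 CPM minus the control median of *Fzd5*, *Fzd6*, *Fzd8* and *Lrp5* (y axes) against the β-catenin target score in mean log2 CPM (x axes), with 1 point per mouse, circles for Ctrl and triangles for βCat-GOF. The βCat-GOF triangles of *Fzd5* climb in the order of the score (r = 0.96), while the 2 right-hand triangles, mice 1 and 2, are high for *Fzd6* and low for *Lrp5*.

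Some members also moved with each other within groups, and of all pairs of the 10 members the 3 with the largest r in size are given first. Over the 12 mice, after the group means were removed, *Fzd3* and *Fzd6* had r = 0.87, *Fzd6* and *Lrp5* r = -0.83, and *Fzd3* and *Lrp5* r = -0.62, which are descriptions that share libraries. Close behind were *Fzd2* and *Lrp6* (r = -0.61), *Fzd3* and *Fzd5* (0.60) and *Fzd1* and *Fzd7* (0.59). Without mice 1 and 2 the values of the first 3 pairs over 10 mice were 0.70, -0.45 and -0.10. The largest r in size was then that of *Fzd4* and *Fzd7*, at -0.81, against -0.55 with all mice. The genes of the whole table most like a member were sought for the 3 members with the lowest p, by Pearson's r of log2 CPM over the 12 mice, a measure that includes the difference between the groups. For *Fzd5* these were *Gjc1*, a connexin (r = 0.944), *Ccnd1*, cyclin D1 (r = 0.942), and *Trabd2b*, a Wnt-cleaving membrane protease (r = 0.935). For *Fzd8* they were *Ccdc151*, *Lrrc61* and *Engase* (r from 0.884 to 0.904), and for *Lrp5* *Sphk2*, *Zzef1* and *Ywhag* (r from 0.939 to 0.952). For these 9 genes r was 0.872 to 0.966 without mice 1 and 2, and 0.82 to 0.94 over the 12 mice with group means removed. They were picked on these same mice, so high values are partly given by the choice.

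Around the receptors, 5 genes were called, each encoding a secreted or membrane protein. Of 80 other pathway genes, 59 were tested, 4 were called higher and 1 lower, which is 8.47% against 3.68% of all genes. The lists were chosen with earlier results of these data known. The paper itself names *Notum*, *Apcdd1* and *Ror2* as upregulated in these samples. The difference between the 2 shares is therefore no independent evidence about the pathway. In receptor turnover 1 of 6 tested genes was called higher, *Rnf43*, the ubiquitin ligase that removes Frizzleds from the membrane. It had 162 ± 29.3 normalized counts in Ctrl and 272 ± 39.9 in βCat-GOF (log2 fold change 0.74, edgeR adjusted p = 0.0134). Of 11 tested inhibitors 2 were called higher and 1 lower. The 1 called lower was *Frzb*, a secreted protein with a Frizzled-like cysteine-rich domain. It had 6514 to 8805 in Ctrl and 3089 to 4993 in βCat-GOF, with no overlap (log2 fold change -0.99, SE 0.12, edgeR adjusted p = 0.00066). *Notum*, which removes the lipid of Wnt proteins (log2 fold change 2.08), and *Apcdd1*, a membrane inhibitor (1.45), rose. Both are on the target list, and exons of *Notumos* on the opposite strand cover 38.1% of those of *Notum*, the same limit as for *Fzd5*.

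Among other Wnt receptors, 1 of 4 tested genes was called higher. This was *Ror2*, a receptor tyrosine kinase with a cysteine-rich domain related to that of Frizzleds, with a log2 fold change of 1.14 (edgeR adjusted p = 0.0125) and its highest values, 439 and 369, in mice 1 and 2. Without them it was 0.77 (adjusted p = 0.0137). Of the remaining lists, 0 of 3 other Frizzled-class receptors (*Fzd9*, *Fzd10* and *Smo*), 0 of 9 tested Wnt ligands (of 19), 0 of 10 tested genes of ligand secretion, chaperones and partners and 0 of 16 of the intracellular relay were called. *Fzd9* had a log2 fold change of 0.50 (edgeR adjusted p = 0.161) and *Fzd10*, with at most 70 counts in a mouse, of 0.99 (adjusted p = 0.21). Of the 6 target genes 4 were called higher, and all 6 had a log2 fold change above 0. *Axin2*, also on the relay list, and *Lef1* were not called. Their log2 fold changes were 0.70 and 0.90 (edgeR adjusted p = 0.0739 and 0.0845), and the paper names both as upregulated.

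**Figure D5:**
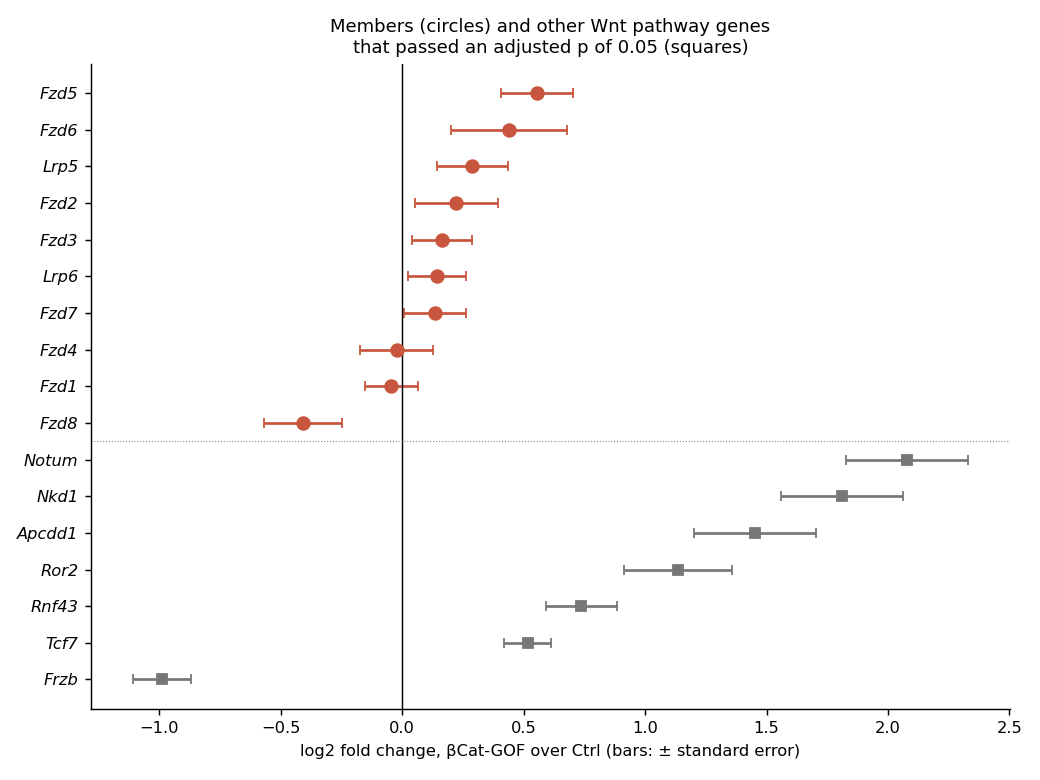
Log2 fold change of βCat-GOF over Ctrl with its standard error for the 10 receptor genes (circles) and, under the dotted line, the 7 other Wnt pathway and target genes that passed an adjusted p of 0.05 (squares). The receptors lie between -0.41 (*Fzd8*) and 0.56 (*Fzd5*), and the other genes between -0.99 (*Frzb*) and 2.08 (*Notum*).

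Markers of the adrenal's cell types were summarised beside these results. The 7 zG markers had a mean log2 CPM of 6.30 to 7.21 in Ctrl and 6.53 to 7.76 in βCat-GOF (difference 0.57, exact permutation p = 0.0433, adjusted p = 0.159), and 4 of 7 were called higher. The 6 macrophage markers had 5.44 to 6.26 and 5.14 to 5.87 (difference -0.41, exact p = 0.039, adjusted p = 0.159), and 1 of 6 was called lower. The 5 zF markers differed by 0.47 (exact p = 0.0779, adjusted p = 0.214), 2 of 5 were called higher, and 5 of 6 βCat-GOF mice lay above every control. None of the 10 cell type lists passed adjustment, and no tested marker of any list was at 0. The part of the makeup of the gland in the values of *Fzd5*, *Fzd8* and *Lrp5* was not tested.

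A TCF/LEF motif, CTTTGAT on either strand (ATCAAAG on the other), was searched in RefSeq promoters (GRCm38.p6, 250 bases before to 50 after the start). The table matched 4 members, *Fzd1*, *Fzd4*, *Fzd5* and *Fzd7*, and 0 of these 4 held the motif, against 3.73% of 32851 promoters. This says only that these letters are not in these windows.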

How the data were processed

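The authors trimmed adapters with cutadapt, aligned reads to mm10 with STAR and ran featureCounts 1.4.4 on reads with a unique alignment, and they deposited counts for 39017 genes without normalization. Annotation release and strand setting are not given in the sources used here. The authors also deposited a signal table, the counts of each library divided by 1 factor, used here for gene symbols and for a check of the factors (0.9545 to 0.9758 times DESeq2's). All columns were mapped.

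Counts were tested with edgeR 4.0.16 (TMM, filterByExpr, quasi-likelihood test, two-sided, R 4.3.3), with Benjamini-Hochberg adjustment over 14953 genes. The study used DESeq2 1.6.3, and DESeq2 1.42.0 was an alternative here, as were other scaling, filters, 1 surrogate variable from sva 3.50.0, a threshold of 0.01 and left-out mice. Log2 CPM used a prior count of 2. Positions, exons and coding sequences came from GENCODE M21 and promoters from RefSeq. Copies were searched with blastn 2.17.0 (95% identity over at least 10% of a transcript). Motifs and identities used Biopython 1.88 in Python 3.11.15, and figures matplotlib 3.10.9. The edgeR and DESeq2 steps were tested on simulated counts.

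At these depths 3 counts equal 0.117 to 0.223 CPM, and every member had at least 115 counts in each mouse. The members and lists were chosen with earlier results of these data known. All members are named; other pathway genes are named where their adjusted p was under 0.05 (at most 6 a list), and the most alike genes for the 3 members with the lowest p. *Gm38058* and *Notumos* are named for their overlap, *Fzd9*, *Fzd10* and *Smo* to complete the family, *Axin2* and *Lef1* as parts of the score, and *Ctnnb1* as the altered gene. The ratio of *Fzd5* to *Fzd8* was chosen after values were seen.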

Additional observations from a re-analysis of the deposited data

Results flagged for a closer look

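Of 44 groups of 6 mice examined for a value far from the rest, 3 held one, where chance alone gives about 1 in 20 groups. *Fzd6* in Ctrl was 544.1 normalized counts in mouse 3, against a median of 346, and without this mouse the controls lay closer to one another than to it. The same mouse had the lowest *Fzd8* value of the controls (383). *Fzd7* in Ctrl was 486.1 normalized counts in mouse 6, against a median of 411. The 3 X-zone markers had a mean log2 CPM of 5.428 in βCat-GOF mouse 1, against a median of 9.003 in its group, and this mouse also had the highest *Fzd5* value (632) and the highest target score (6.03).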

How the results depend on the processing

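The count of members called, 0 in edgeR with TMM, became 1 (*Fzd5*) with DESeq2 with or without its prior, with DESeq2's size factors and with 1 surrogate variable, and 1 (*Lrp5*) without βCat-GOF mice 1 and 2. With each mouse left out it was 0 to 1. The count past the study's cut-offs was 1 in the first 4 of these settings and 0 to 1 with a mouse left out. Pathway genes called higher numbered 4, 2 at an adjusted p under 0.01, 6 with DESeq2 with or without its prior and with 1 surrogate variable, 3 without 1 mouse of each shared stem, and 4 to 5 with a mouse left out. Those called lower numbered 1, 3 with DESeq2 with or without its prior, 3 without βCat-GOF mice 1 and 2, 2 without 1 mouse of each shared stem, and 1 to 2 with a mouse left out. The sign changed for 3 members. *Fzd4* was 0.0423 with 1 surrogate variable, 0.00203 without 1 mouse of each stem and -0.13 to 0.0583 with a mouse left out. *Fzd1* was -0.10 to 0.00331 with a mouse left out, and *Fzd6* was -0.00291 without mice 1 and 2. The log2 ratio of *Lrp5* to *Lrp6* was -0.0311 to 0.24 with a mouse left out. Members passing adjustment against the target score numbered 0 without 1 mouse of each stem and 0 to 1 with a mouse left out. With a βCat-GOF mouse removed the smallest possible exact p was 0.0083, so a single member could not pass adjustment over the 20 correlations. The signs of the other 7 members held in all settings run. Apart from a left-out mouse, whose removal is the cause by construction, the cause was not tested. The planned fit without the βCat-GOF mouse of a different label number is the fit without βCat-GOF mouse 5. No paired analysis was possible because the labels give no numbers shared across the groups.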

Other observations

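Some genes of the pathway, picked after their values were seen, had values in βCat-GOF mice 1 and 2 outside the range of the other 4, while *Fzd1*, *Fzd2*, *Fzd4*, *Fzd7*, *Fzd8*, *Lrp6*, *Rnf43* and *Frzb* had at least 1 of the 2 mice inside or on either side of it. *Nkd1*, a Dishevelled-binding antagonist, had 3785 and 3571 normalized counts in them, 1328 to 2624 in βCat-GOF mice 3 to 6 and 555 to 962 in Ctrl. *Axin2*, the scaffold of the destruction complex, had 1784 and 1230, against 787 to 1091 and 511 to 891. The normalized counts of *Ctnnb1* in them lay within the range of the other 4. *Fzd6* per kb was 8.85 and 8.47 times *Fzd3* per kb in these mice, against 4.83 to 5.81 in the other βCat-GOF mice and 4.41 to 6.75 in Ctrl.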
